A study of Homo sapiens with 6 samples.

Results

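The genes described here encode 9 secreted proteins that cells lay down around themselves: fibronectin (FN1), tenascin-C (TNC), tenascin-X (TNXB), thrombospondins 1, 2 and 3 (THBS1, THBS2 and THBS3), osteopontin (SPP1), periostin (POSTN) and the transforming growth factor beta induced protein (TGFBI). They were chosen by gene symbol, and all 9 of them were found among the 20811 genes of the expression table. The table comes from HuCCT1, a human intrahepatic cholangiocarcinoma (iCCA) cell line, grown in RPMI with fetal bovine serum. HuCCT1/CD90+ cells had received human THY1-CMV-GFP, THY1 being the gene of the surface glycoprotein CD90, and HuCCT1/CD90− cells the blank vector Lenti-CMV-GFP-2A-Puro, both as lentivirus at MOI 40. Each line was measured in 3 libraries made from total RNA with an amplicon panel. Both lines therefore carried a CMV-driven GFP vector, and whether either was a single clone is not stated in the sources used here.

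Fibronectin is a large adhesive glycoprotein that cells assemble into fibrils through integrins, and it serves as a scaffold on which other matrix proteins are deposited. Tenascins, thrombospondins, osteopontin and periostin belong to the matricellular proteins, which change how cells hold on to the matrix and respond to growth factors more than they bear load. In bile duct tumours much of this matrix is laid down by fibroblasts of the stroma, while osteopontin is also a product of bile duct cells, and several of these genes are known to be induced by TGF-β.

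The values are RPM, reads scaled to a common total (the genes of a library summed to a median of 999975 RPM), and the libraries held from 8587634 to 10551516 reads. The transduced gene was looked at first, and THY1 was read 0, 1 and 0 times in HuCCT1/CD90− against 435, 445 and 680 in the HuCCT1/CD90+ libraries. Of the bile duct markers named here, KRT7 and KRT19 were the most abundant in each library, EPCAM was higher in HuCCT1/CD90+, and CFTR was below 2 RPM in all libraries. A gene was called where limma, fitted on log2(RPM + 1) over all genes, gave a Benjamini-Hochberg adjusted p of at most 0.05 and a fold of at least 1.5. By this rule HuCCT1/CD90+ had lower values for 7.49% and higher values for 7.59% of all genes, and among the 12062 genes averaging 1 RPM or more the shares were 12.1% and 12%. Adjusted p-values without another name are from the limma fit without pairing of libraries. They measure the spread between libraries, which were not stated to come from separate cultures.

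Of the 9 matrix genes, 6 were lower in HuCCT1/CD90+ (TNC, SPP1, POSTN, THBS3, TGFBI and FN1), none was higher, and 3 were not called (THBS1, TNXB and THBS2). In a limma fit that paired same-numbered libraries (the replicate block), 4 were lower (TNC, SPP1, POSTN and FN1), against 4.86% of all genes, and none was higher. No member was higher at an unadjusted p of at most 0.05 with the same fold either (a rule that calls 20.1% of all genes in either direction), nor with edgeR or DESeq2 on the recovered reads. The falls were of very different size, from a 259-fold difference of the mean RPM for TNC to a 3.21-fold difference for FN1. THBS2 was at the detection floor of 3 reads in both lines, and over the other 8 genes the median log2 fold change was -1.90, beside a median of -0.0086 over the genes averaging 1 RPM or more. In 7 of these 8 genes, all but THBS1, the lowest HuCCT1/CD90− library was above the highest HuCCT1/CD90+ library, an arrangement found in 17.7% of all genes and in 26.9% of those averaging 1 RPM or more. In bulk RNA, fewer cells that make a transcript and less of it in each cell cannot be told apart.

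**Figure D1:**
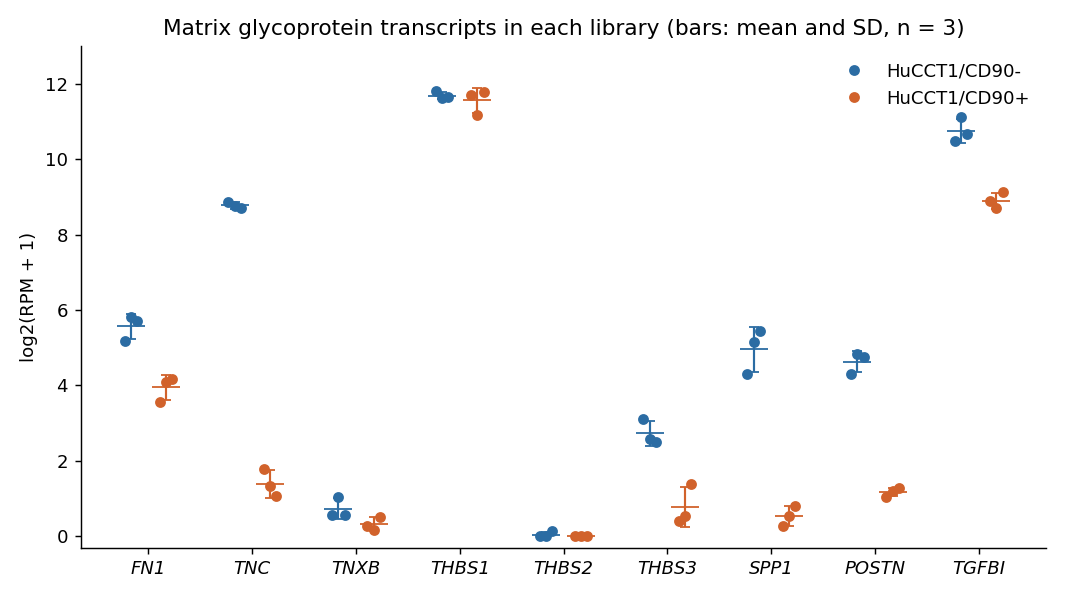
Level of each of the 9 genes as log2(RPM + 1), with 1 point per library, a horizontal bar at the mean and an error bar of 1 SD (n = 3 per line). TNC lies between 413 and 467 RPM in HuCCT1/CD90− (blue) and below 3 RPM in HuCCT1/CD90+ (orange), whereas the THBS1 points of the lines overlap.

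The windows around the start sites of 6 of these genes are shown. TNC, FN1, POSTN, SPP1 and TGFBI were called lower and THBS1 was not, while those of THBS3, also called lower, are not printed. Each window holds 250 bases before and 50 after the RefSeq start on GRCh38.p14, in the direction of transcription. Capitals mark every match, on either strand, to TATAA (the TATA motif), TGACGTCA (the cyclic AMP response element), TGANTCA (the AP-1 motif), GGGCGG (the GC box) and CCAAT (the CCAAT box). None of these 5 letter strings contains another, although neighbouring matches can share bases.
TNC (chr9:115118108-115118407, minus strand): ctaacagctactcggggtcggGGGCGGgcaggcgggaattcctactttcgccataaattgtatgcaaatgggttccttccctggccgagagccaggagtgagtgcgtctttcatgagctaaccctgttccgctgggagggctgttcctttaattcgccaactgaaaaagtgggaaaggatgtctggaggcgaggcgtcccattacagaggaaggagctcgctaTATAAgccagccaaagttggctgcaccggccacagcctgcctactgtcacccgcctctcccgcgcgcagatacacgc
FN1 (chr2:215436019-215436318, minus strand): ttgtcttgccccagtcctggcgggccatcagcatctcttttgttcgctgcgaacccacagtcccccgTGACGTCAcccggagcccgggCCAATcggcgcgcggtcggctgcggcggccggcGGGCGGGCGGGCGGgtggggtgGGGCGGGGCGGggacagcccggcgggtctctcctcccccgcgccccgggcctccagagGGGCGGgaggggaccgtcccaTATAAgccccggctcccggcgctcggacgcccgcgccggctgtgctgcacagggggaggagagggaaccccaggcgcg
POSTN (chr13:37598719-37599018, minus strand): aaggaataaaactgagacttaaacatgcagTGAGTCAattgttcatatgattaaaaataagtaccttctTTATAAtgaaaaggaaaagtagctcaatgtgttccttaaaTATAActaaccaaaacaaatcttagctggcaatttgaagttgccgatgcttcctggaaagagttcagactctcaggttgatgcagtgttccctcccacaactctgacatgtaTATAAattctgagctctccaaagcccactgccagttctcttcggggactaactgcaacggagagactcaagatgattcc
SPP1 (chr4:87975464-87975763, plus strand): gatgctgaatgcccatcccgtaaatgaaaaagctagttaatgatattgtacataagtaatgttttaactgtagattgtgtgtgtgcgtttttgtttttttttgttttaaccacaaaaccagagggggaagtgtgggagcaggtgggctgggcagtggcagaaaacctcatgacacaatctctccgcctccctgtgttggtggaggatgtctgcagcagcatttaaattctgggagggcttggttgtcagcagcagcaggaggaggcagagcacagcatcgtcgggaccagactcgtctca
TGFBI (chr5:136028738-136029037, plus strand): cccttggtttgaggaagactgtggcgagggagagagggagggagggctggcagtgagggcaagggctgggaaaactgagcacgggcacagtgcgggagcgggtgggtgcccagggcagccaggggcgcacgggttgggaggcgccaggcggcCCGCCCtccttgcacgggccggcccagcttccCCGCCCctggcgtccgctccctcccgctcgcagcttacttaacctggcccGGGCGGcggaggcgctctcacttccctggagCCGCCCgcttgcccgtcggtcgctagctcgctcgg
THBS1 (chr15:39580829-39581128, plus strand): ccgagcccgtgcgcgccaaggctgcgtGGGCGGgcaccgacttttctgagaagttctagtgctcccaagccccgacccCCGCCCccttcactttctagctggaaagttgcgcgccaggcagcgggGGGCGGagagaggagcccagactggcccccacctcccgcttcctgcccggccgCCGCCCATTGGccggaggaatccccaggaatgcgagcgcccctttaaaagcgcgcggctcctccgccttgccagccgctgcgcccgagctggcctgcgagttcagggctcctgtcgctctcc

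A window was given for all 9 genes, and for THBS3 and TNXB there were 2 each. TATAA began 27 bases before the start in TNC, 28 in FN1, 29 in THBS2 and 29 in POSTN, which held 4 such matches in all. It stood in 20.5% of the 34796 different RefSeq windows, and was in none of the windows of SPP1, TGFBI, THBS1, THBS3 and TNXB. FN1 was the only member with TGACGTCA, 183 bases before the start, a string held by 1.84% of windows. TGANTCA was found in POSTN alone, 220 bases before the start, and in 7.73% of all windows. GGGCGG, present in 44.9% of windows, had 6 matches in FN1, 4 in TGFBI, 4 in THBS1, 1 in TNC and 1 and 2 in the windows of THBS3. CCAAT, present in 34.6% of windows, was in the windows of FN1, THBS1 and THBS3. SPP1 had none of the 5 motifs, so none was in all 5 windows shown of genes called lower. Whether any of these motifs bears on the levels was not tested. The base composition also ranged widely, from 39% G and C in POSTN to 76.7% in FN1, beside a median of 58.7% over all windows.

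Fibronectin is the scaffold of this group. FN1 lies at chr2:215360440-215436172 on the minus strand of GRCh38 in GENCODE 29, which lists 13 protein-coding transcripts of it. The HuCCT1/CD90− libraries showed 35.4, 55.5 and 50.9 RPM, and those of HuCCT1/CD90+ 10.8, 16.2 and 17.1 RPM. The groups did not overlap, and replicate 1 was the lowest library in both. FN1 fell from 47.3 ± 10.5 to 14.7 ± 3.40 RPM (mean ± SD, n = 3 per line), which is -1.62 on the log2 scale with a standard error of 0.26 (adjusted p = 0.020). The call was kept with the replicate block (adjusted p = 0.017) but not when HuCCT1/CD90− replicate 2 or 3 was left out (0.067 and 0.076, limma) or HuCCT1/CD90+ replicate 2 or 3 (0.063 and 0.058, limma). Since the gene is read over 1 amplicon, its plasma and cellular splice forms were not told apart.

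Tenascin-C, a hexameric glycoprotein that counteracts firm adhesion to fibronectin and is scarce in healthy adult tissue, showed the largest difference of the group. TNC lies at chr9:115019578-115118257 on the minus strand. HuCCT1/CD90− showed 467, 431 and 413 RPM, against 2.47, 1.51 and 1.08 RPM for HuCCT1/CD90+. These rest on 4030 to 4926 reads per library in the first line and on 23, 13 and 10 reads in the second, so the transcript was low but above the floor of 3 reads in each library. The difference of -7.38 on the log2 scale (95% confidence interval from -7.94 to -6.82, limma adjusted p = 0.00040) was the 6th lowest of all 20811 genes. Pooling the reads of each line gave a 258-fold difference with a 95% counting interval from 193 to 352. The fall passed under each of the 18 alternatives that were run. Tenascin-X, which is known for binding collagen in soft connective tissue, was scarce in both lines. TNXB lies at chr6:32041153-32115334 on the minus strand, and had 5, 10 and 5 reads in HuCCT1/CD90− and 2, 1 and 4 reads in HuCCT1/CD90+. The libraries did not overlap (0.474 to 1.07 against 0.116 to 0.434 RPM), but the difference did not pass (log2 fold change -0.41, standard error 0.18, adjusted p = 0.23, or 0.31 with DESeq2). The pooled ratio was 2.57 with a counting interval from 1.04 to 7.18. The 3' part of TNXB has a near-identical partial copy in the genome, so the reads may be shared and the value is uncertain.

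The thrombospondins are calcium-binding glycoproteins, of which THBS1 binds CD47 and can activate latent TGF-β. THBS1 lies at chr15:39581079-39599466 on the plus strand. HuCCT1/CD90− showed 3563, 3141 and 3177 RPM, against 3329.9, 2319 and 3531 RPM for HuCCT1/CD90+. The lines overlapped, with the lowest and the second highest values both from HuCCT1/CD90+. The means were 3294 ± 234 and 3059.9 ± 649.9 RPM (SD, n = 3 each). The log2 fold change was -0.13 with a 95% confidence interval from -0.63 to 0.37 (adjusted p = 0.79), which leaves room for a change of somewhat over 1.5-fold downwards. Without HuCCT1/CD90+ replicate 2 it was 0.061, so its sign rests on that library. With 19911 to 37600 reads per library, depth was not what limited this comparison.

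THBS3, a pentameric thrombospondin known from cartilage and tendon, was at lower levels. It lies at chr1:155195588-155209051 on the minus strand. HuCCT1/CD90− showed 7.58, 5.03 and 4.66 RPM, against 0.322, 0.466 and 1.63 RPM for HuCCT1/CD90+. The HuCCT1/CD90+ values came from 3, 4 and 15 reads, and replicate 3 stood above the other 2 libraries of that line. The fall, at -1.95 on the log2 scale with a standard error of 0.34 (adjusted p = 0.026), was less secure than those of the other called members. Its adjusted p was 0.11 with the replicate block. It was 0.073, 0.076 and 0.071 (limma) without HuCCT1/CD90− replicate 1, 2 or 3, and 0.077 and 0.086 (limma) without HuCCT1/CD90+ replicate 1 or 2. On the recovered reads it passed with edgeR (adjusted p = 3.2e-05) and DESeq2 (adjusted p = 5.2e-07). THBS3 overlaps MTX1 on the opposite strand, and the 911 genes of chromosome 1 averaging 10 RPM or more had a median log2 fold change of -0.32. With that median taken off, the log2 fold change of THBS3 was -1.81 (adjusted p = 0.042). THBS2, the close relative of THBS1 that inhibits angiogenesis, lies at chr6:169215780-169254044 on the minus strand and had 1 read in HuCCT1/CD90− replicate 3 and none in the other 5 libraries. A count of 0 allows up to 0.284 to 0.349 RPM at these depths, so no fold is given.

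Osteopontin, a phosphorylated glycoprotein that binds αv integrins and CD44, was nearly lost. SPP1 lies at chr4:87975650-87983426 on the plus strand. HuCCT1/CD90− showed 18.6, 34.6 and 42.2 RPM, against 0.214, 0.466 and 0.760 RPM for HuCCT1/CD90+, the latter from 2, 4 and 7 reads. All HuCCT1/CD90− libraries were far above all HuCCT1/CD90+ libraries, although the former spread over more than 2-fold (coefficient of variation 37.9%). On the log2 scale the difference was -4.41 with a standard error of 0.36 (adjusted p = 0.0034). Because the offset of 1 RPM exceeds the HuCCT1/CD90+ values, this understates the change, and the pooled reads gave a 65.9-fold difference with a counting interval from 38.4 to 124. It was called under each of the 18 alternatives, the replicate block included (adjusted p = 0.019).

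Periostin and TGFBI are related proteins built of fasciclin domains, and both are known as targets of TGF-β. POSTN, which helps to link fibronectin, tenascin-C and collagen in the matrix, lies at chr13:37562583-37598844 on the minus strand. HuCCT1/CD90− showed 18.8, 27.5 and 26.2 RPM, against 1.07, 1.28 and 1.41 RPM for HuCCT1/CD90+. The lines did not overlap, and the HuCCT1/CD90+ values, from 10, 11 and 13 reads, lay close together. POSTN fell from 24.2 ± 4.71 to 1.25 ± 0.171 RPM (mean ± SD, n = 3 per line), which is -3.46 on the log2 scale with a standard error of 0.17 (adjusted p = 0.0010). It passed under each of the 18 alternatives, with an adjusted p of 0.016 in the fit with the block.

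TGFBI, an adhesive protein that binds collagens and integrins, lies at chr5:136028895-136063818 on the plus strand. HuCCT1/CD90− showed 1421, 2203 and 1631 RPM, against 471, 413 and 555 RPM for HuCCT1/CD90+. The lines were well apart, and the transcript was still abundant in HuCCT1/CD90+, with 3543 to 5119 reads per library. The difference of -1.85 on the log2 scale, with a standard error of 0.21 (adjusted p = 0.0085), held with any 1 library left out, where the adjusted p ranged from 0.019 to 0.039. With the replicate block it did not pass (adjusted p = 0.063). In that fit 4 of the 9 genes were lower (TNC, SPP1, POSTN and FN1), against 4.86% of all genes.

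**Figure D2:**
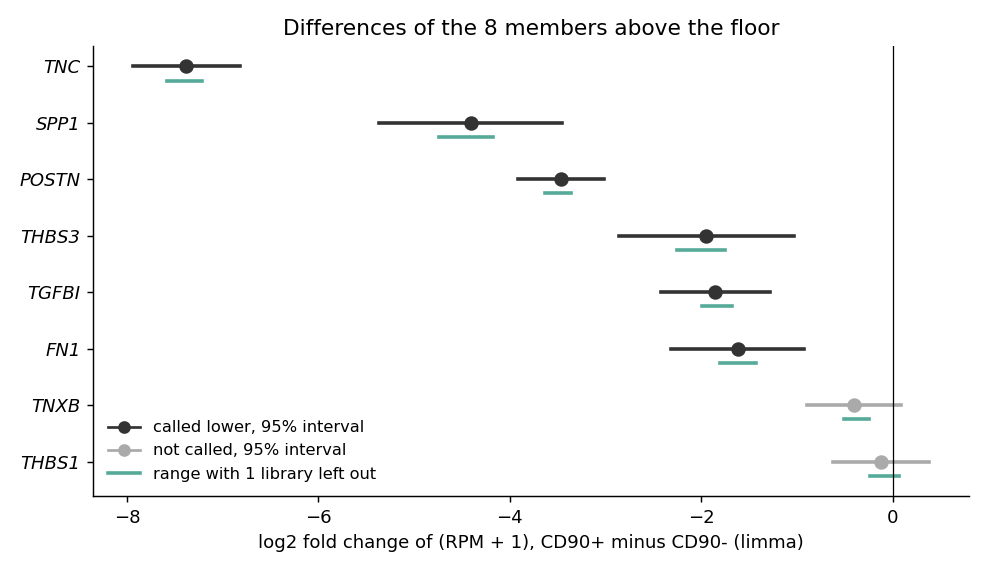
Log2 fold change of RPM + 1 between the lines for the 8 genes above the floor, with the 95% confidence interval from limma and, below it in green, the range when any 1 library is left out. TNC, at -7.38, stands apart from SPP1 (-4.41) and POSTN (-3.46), THBS3, TGFBI and FN1 lie between -1.95 and -1.62, and the intervals of TNXB and THBS1 include 0.

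Set among all genes, the falls of TNC, SPP1 and POSTN ranked 6, 45 and 91 from the lowest log2 fold change of 20811, and those of THBS3, TGFBI and FN1 ranked 318, 345 and 439. These ranks depend on the offset of 1 RPM, which compresses differences of weakly expressed genes such as THBS3. The confidence intervals of TNC and SPP1 did not overlap (-7.94 to -6.82 and -5.36 to -3.46), nor did those of POSTN (-3.91 to -3.01) and FN1 (-2.31 to -0.92). The intervals of THBS3, TGFBI and FN1 overlapped, so no order is given among them.

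**Figure D3:**
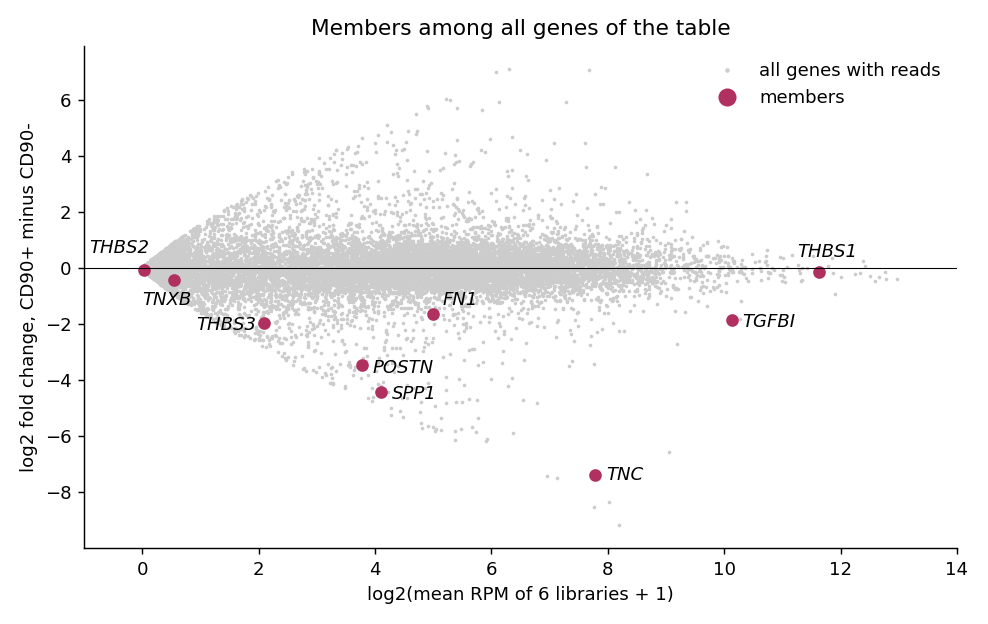
Log2 fold change of each gene with reads (grey) against the log2 of its mean RPM plus 1 over 6 libraries, with the 9 members in red. THBS1, at a log2 fold change of -0.13, is the most abundant member, and TNC, at -7.38, lies near the lower edge of all genes.

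The make-up of the group's summed signal differed between the lines. Shares of reads are not shares of molecules, since each gene is read over its own amplicon and amplicons can differ in how well they amplify. The 9 genes summed to 5532, 5899 and 5345 RPM in HuCCT1/CD90− against to 3816, 2751 and 4109 RPM in HuCCT1/CD90+. THBS1 held 64.4%, 53.2% and 59.4% of that sum in HuCCT1/CD90− and 87.3%, 84.3% and 85.9% in HuCCT1/CD90+. Every HuCCT1/CD90+ library thus had a larger THBS1 share than every HuCCT1/CD90− library, while THBS1 itself was not called. TGFBI went the other way, from 25.7%, 37.4% and 30.5% to 12.3%, 15.0% and 13.5%. TNC held 8.44%, 7.31% and 7.72% in HuCCT1/CD90− and between 0.0264% and 0.0646% in HuCCT1/CD90+. The reads of THBS1 per read of TGFBI were 2.51, 1.43 and 1.95 in HuCCT1/CD90− and 7.07, 5.62 and 6.36 in HuCCT1/CD90+. Without THBS1 the sum was 1969, 2758 and 2168 RPM against 486, 433 and 578 RPM, and TGFBI made up 95.4% to 96.9% of it in HuCCT1/CD90+.

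**Figure D4:**
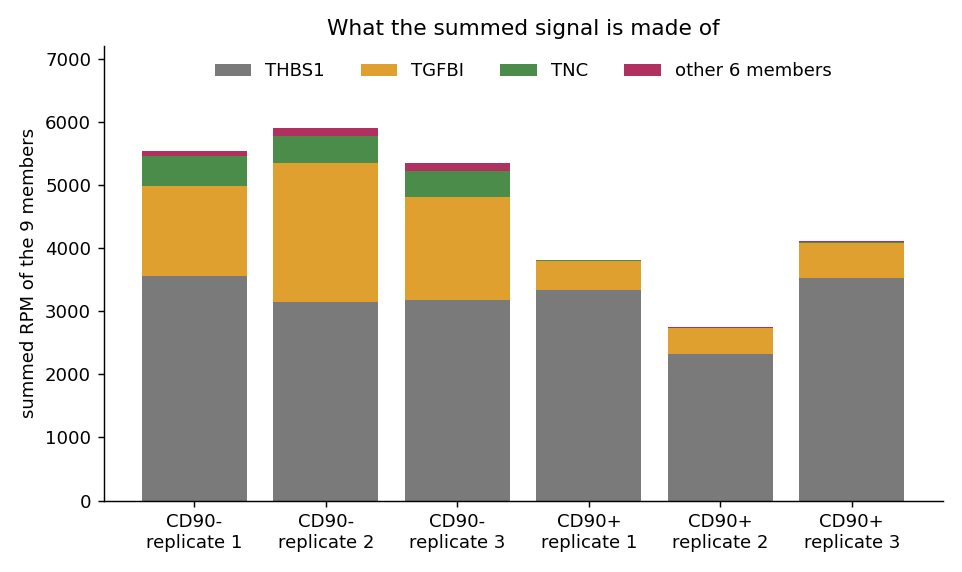
Summed RPM of the 9 genes in each library, split into THBS1 (grey), TGFBI (ochre), TNC (green) and the other 6 genes (red). The grey part is of similar height in 5 of the 6 libraries and lowest in HuCCT1/CD90+ replicate 2 (2319 RPM), while the ochre and green parts shrink in HuCCT1/CD90+.

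The libraries of a line did not vary in the same way for all members. In HuCCT1/CD90−, replicate 1 had the lowest FN1, SPP1, POSTN and TGFBI and the highest TNC, THBS1 and THBS3. In HuCCT1/CD90+, replicate 3 had the highest value of 7 genes (FN1, TNXB, THBS1, THBS3, SPP1, POSTN and TGFBI) and the lowest TNC. The coefficient of variation in HuCCT1/CD90− was 6.31% for TNC and 7.12% for THBS1, and between 19.5% and 37.9% for FN1, THBS3, SPP1, POSTN and TGFBI.

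Genes related to the members by family were nearly silent. Of 10 such genes, the tenascins TNR and TNN, the thrombospondins THBS4 and COMP, the osteopontin relatives IBSP, DMP1, DSPP and MEPE, and the fasciclin-domain receptors STAB1 and STAB2, 6 had no read in any library. A further 3 never exceeded 3 reads, and STAB1 lay between 0 and 0.485 RPM. None was called by limma, at an adjusted or an unadjusted p of at most 0.05, or by DESeq2, and edgeR's filter removed all of them. The relatives IBSP, DMP1, DSPP and MEPE, which adjoin SPP1 on chromosome 4, thus stayed at or near 0 in the line in which SPP1 was expressed.

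Most receptors of these proteins were not called, and those that were went in both directions. Of 16 receptor genes, 3 were lower (ITGB3, LRP1 and ITGA5) and 3 were higher (ITGB6, CD44 and CD47). The same shares were 7.49% and 7.59% of all genes, and 12.1% and 12% of those averaging 1 RPM or more. The remaining 10 receptors were not called, of which ITGA4, ITGA8, ITGA9 and CD36 were at the floor in both lines. Over the other 12 the median log2 fold change was 0.063. With edgeR and DESeq2 4 were lower and 3 higher, the addition being ITGB8 (adjusted p = 0.014 with each, and 0.25 with limma). ITGB3, whose product pairs with the αv chain to bind osteopontin, fibronectin and thrombospondin, had 16.2, 22.6 and 23.4 RPM in HuCCT1/CD90− against 0.858, 1.51 and 0.651 RPM in HuCCT1/CD90+ (log2 fold change -3.44, adjusted p = 0.0020). ITGB6, whose product with the same partner binds fibronectin, tenascin-C and latent TGF-β, did the reverse, with 0.948, 0.642 and 0.582 RPM against 19.9, 16.2 and 24.4 RPM (log2 fold change 3.61, adjusted p = 0.0011). There were 0.0249 to 0.0585 reads of ITGB6 per read of ITGB3 in HuCCT1/CD90− and 10.7 to 37.5 in HuCCT1/CD90+, which restates these opposite differences. The shared partner ITGAV was not called (127 ± 13.4 and 101 ± 3.78 RPM, SD, n = 3 each, adjusted p = 0.076).

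The remaining called receptors bind fibronectin, osteopontin or thrombospondin. ITGA5, the alpha chain of the main fibronectin receptor, fell from 154 ± 32.4 to 81.9 ± 5.13 RPM (SD, n = 3 each; adjusted p = 0.033). It did not pass with the replicate block (adjusted p = 0.067), nor without HuCCT1/CD90− replicate 3 or HuCCT1/CD90+ replicate 1, 2 or 3 (adjusted p from 0.098 to 0.11, limma). Its partner ITGB1 was at 27.8 ± 2.97 and 26.3 ± 5.90 RPM and was not called (adjusted p = 0.91). CD44, an osteopontin receptor, had 1.14, 2.14 and 1.75 RPM in HuCCT1/CD90− against 14.2, 14.9 and 15.0 RPM in HuCCT1/CD90+ (log2 fold change 2.57, adjusted p = 0.0018). CD44 was thus higher in the line in which SPP1 was lower. CD47, the thrombospondin receptor, rose from 75.9 ± 10.5 to 189 ± 6.64 RPM (adjusted p = 0.0042), beside a THBS1 level that was not called. LRP1, an endocytic receptor that takes up thrombospondin 1, fell from 131 ± 52.0 to 11.3 ± 2.99 RPM (-3.37 on the log2 scale, adjusted p = 0.0095).

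**Figure D5:**
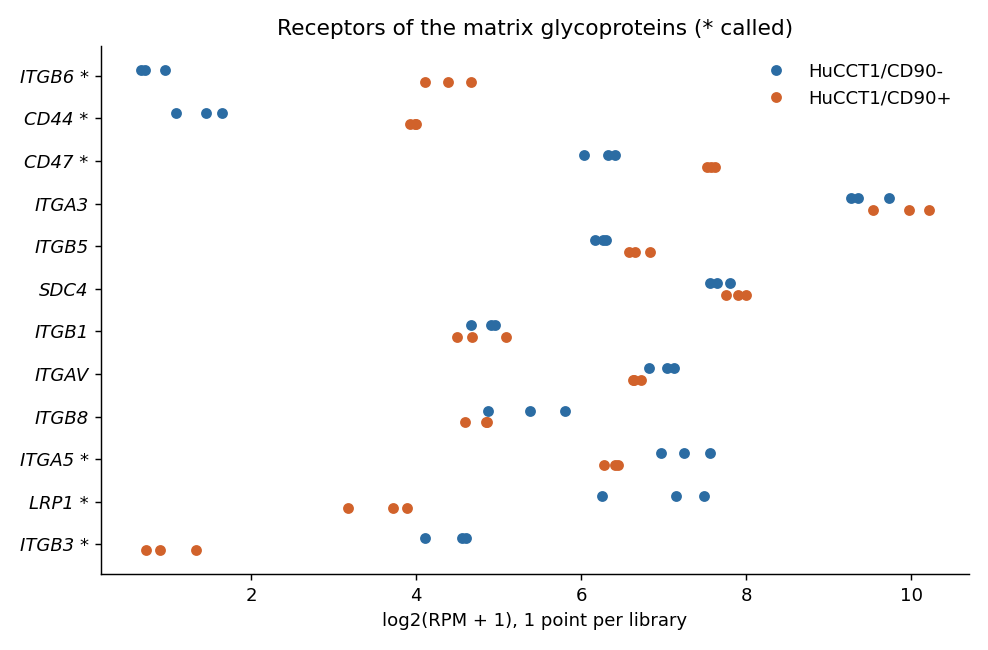
Level of the 12 receptor genes above the floor as log2(RPM + 1), with 1 point per library (HuCCT1/CD90− blue, HuCCT1/CD90+ orange), ordered by log2 fold change, and an asterisk for the 6 that were called. ITGB6, CD44 and CD47 are higher and ITGA5, LRP1 and ITGB3 lower in HuCCT1/CD90+.

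Of 11 genes whose products assemble, modify or cut this matrix, 4 were lower in HuCCT1/CD90+ and none was higher by the main rule. By that rule 7.49% of all genes were lower and 7.59% higher. No gene of this list was higher at an unadjusted p of at most 0.05 with the same fold, whereas MMP7, which encodes a protease that cuts fibronectin and osteopontin, was higher with edgeR (adjusted p = 0.012), with DESeq2 (0.0075) and with limma over genes averaging 1 RPM or more (0.040). Its values were 12.6, 21.9 and 22.2 RPM in HuCCT1/CD90− against 23.9, 46.0 and 28.3 RPM for HuCCT1/CD90+ (limma adjusted p = 0.26 over all genes). PLAU, the urokinase gene, was higher without HuCCT1/CD90− replicate 1 (log2 fold change 0.64, adjusted p = 0.037, limma). HTRA1, a secreted protease that cuts fibronectin, fell from 104 ± 21.8 to 9.41 ± 1.57 RPM (SD, n = 3 each; log2 fold change -3.33, adjusted p = 0.0018). FAM20C, the secretory pathway kinase that phosphorylates osteopontin, had 5.59, 12.0 and 15.8 RPM in HuCCT1/CD90− against 0.214, 0.466 and 0.217 RPM in HuCCT1/CD90+ (adjusted p = 0.011, or 0.051 with limma without HuCCT1/CD90+ replicate 3). SPP1 and FAM20C were therefore both lower. MMP14, a membrane-bound protease of fibronectin, and FBLN1, a fibronectin-binding glycoprotein, fell with log2 fold changes of -1.20 and -1.30 (adjusted p = 0.032 and 0.048). Neither passed with the replicate block (adjusted p = 0.078 and 0.067). MMP14 also lost its call without HuCCT1/CD90− replicate 3 or any HuCCT1/CD90+ library, and FBLN1 without any library other than HuCCT1/CD90+ replicate 2. TGM2, which crosslinks fibronectin and osteopontin, averaged 6399 ± 271 RPM in HuCCT1/CD90−, against 5263 ± 494 RPM for HuCCT1/CD90+, and was not called (adjusted p = 0.090).

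Of 9 TGF-β ligand, receptor and SMAD genes, 1 was called lower, beside 12.1% of all genes averaging 1 RPM or more. This was TGFB2, at 473, 636 and 625 RPM in HuCCT1/CD90− against 235, 196 and 167 RPM in HuCCT1/CD90+ (log2 fold change -1.53, limma adjusted p = 0.010, or 0.076 with the replicate block). None was higher by limma, at an adjusted or an unadjusted p of at most 0.05, nor with edgeR or DESeq2. The list had a median log2 fold change of -0.18, against -1.90 for the members.

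Markers of stromal cells, which make much of this matrix in tissue, were examined because some moved with the members. By the main rule 7.49% of all genes were lower and 7.59% higher. Of 7 fibroblast markers 5 were lower in HuCCT1/CD90+ (COL1A2, COL3A1, DCN, LUM and PDGFRB) and none higher, and COL1A1 was at 13.5 ± 2.21 and 14.2 ± 0.186 RPM (SD, n = 3 each). COL1A2 (8, 3 and 5 reads) and COL3A1 (9, 4 and 13 reads) were near the floor in HuCCT1/CD90− and had no read in HuCCT1/CD90+. The sum of the 7 markers ranged from 41.8 to 65.3 RPM in HuCCT1/CD90− against from 20.4 to 24.7 RPM in HuCCT1/CD90+, and PDGFRA did not exceed 0.388 RPM in any library. With the replicate block LUM and PDGFRB were lower, and COL1A2, COL3A1 and DCN did not pass (adjusted p = 0.090, 0.10 and 0.086, limma). PDGFRB kept its call with any 1 library left out, COL1A2, COL3A1 and DCN each kept theirs in 1 of these 6 fits, and LUM in none (adjusted p from 0.057 to 0.13, limma). Of 6 macrophage markers CD14 and LYZ were lower and CD68 higher, with sums from 132 to 155 and from 89.3 to 108 RPM, and LYZ did not pass with the replicate block (adjusted p = 0.069), while CD163 had no read and PTPRC at most 1 read in any library. Of 4 endothelial markers CDH5 was lower, with sums from 14.5 to 23.2 and from 0.643 to 1.63 RPM, and KDR had at most 1 read. PECAM1 was also lower with edgeR and DESeq2 (adjusted p = 0.0053 and 0.015). VWF had no read in HuCCT1/CD90− against 1, 3 and 4 for HuCCT1/CD90+, and was called higher only with an offset of 0.1 RPM among the alternatives run (adjusted p = 0.041, limma). The part of these markers in the differences of the members was not tested.

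The neighbours of the members on their chromosomes were examined as well. The nearest 2 genes on each side averaging 1 RPM or more gave 24 neighbours for the 6 members called lower, of which 6 were lower and 3 higher in HuCCT1/CD90+, beside 12.1% and 12% of all genes of that level. Next to TGFBI, SMAD5 was at a log2 fold change of -0.04 (adjusted p = 1), while SPOCK1, a matrix proteoglycan gene 911 kb away, fell from 62.5 to 1.07 RPM (-4.90 on the log2 scale, adjusted p = 0.0010). Near SPP1, NUDT9 was higher (log2 fold change 0.78, adjusted p = 0.024) and the transporter gene ABCG2 lower (log2 fold change -3.43, adjusted p = 0.00061). Next to POSTN, the channel gene TRPC4 rose from 0.537 to 6.67 RPM (2.31 on the log2 scale, adjusted p = 0.0023). The 4 neighbours of THBS3 had log2 fold changes from -0.98 to -0.56, and KRTCAP2 and MUC1 among them were lower (adjusted p = 0.026 and 0.027).

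The genes whose profile over the 6 libraries was most like that of a member were looked up by Pearson correlation of log2(RPM + 1) among the 8793 other genes averaging 10 RPM or more. These correlations mainly reflect the gap between the lines, and r exceeded 0.98 for 273 genes with TNC, 97 with FN1 and 104 with TGFBI. CHRDL1, GJA1 and PRSS12 came first for TNC (r = 0.999 for each), CHRDL1 encoding an inhibitor of BMPs and GJA1 the gap junction protein connexin 43. CHRDL1 was at 104 RPM in HuCCT1/CD90− against 0.848 RPM in HuCCT1/CD90+. LYPD3, GALNS and CIITA came first for FN1 (r from 0.995 to 0.996), and TLN2, SFMBT2 and VASN for TGFBI (r = 0.997 for each).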

How the data were processed

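Total RNA of 6 HuCCT1 libraries was reverse-transcribed, amplified with the Ion AmpliSeq Transcriptome panel and read on the Ion GeneStudio S5 Prime instrument. Amplicon reads were counted by the ampliSeqRNA plugin, and the authors deposited them as RPM for 20811 genes, 1 amplicon per gene, without a filter. The submitters' processing notes name hg19. The table holds no coordinates or amplicon sequences, and gene positions were taken from GENCODE 29 (GRCh38) by symbol. Isoforms without the amplicon were not measured.

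All non-zero values were whole multiples of 1 read within 0.0006 RPM, so 100% of them were turned back into reads. Floors (3 reads, 0.284 to 0.349 RPM) and counting intervals (exact, 95%) cover counting error only. No library pair agreed within sampling noise (chi-square test).

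Differences were tested with limma 3.58.1 (R 4.3.3, lmFit and eBayes) on log2(RPM + 1) over all genes. This scale understates changes of weakly expressed genes. Same-numbered libraries of the lines deviated together (r = 0.21, 0.32 and 0.18, other pairs at most 0.071), so the numbers may pair them. The deviations are taken from each line's own mean, so these correlations are not independent, and the sources state no pairing. The main fit therefore had no block, and a replicate block was an alternative. Others were offsets of 0.1 and 5 RPM, means of at least 1 or 10 RPM, quantile normalization, median centring, trend and robust eBayes, each library left out, the unadjusted p, the chromosome's median taken off, edgeR 4.0.16 (filterByExpr, TMM) and DESeq2 1.42.0 on reads, which called 4200 and 4236 genes where limma called 3138. The steps were tested on simulated data. The members and lists were chosen with earlier results of these data known. The text names the members, the genes of the lists that were called or that a sentence on the members needed, and the 3 genes most like FN1, TNC and TGFBI. The neighbouring genes and the promoter motifs were chosen after the values were seen, as were ITGB8, TGFB1, MMP7, PLAU, PECAM1 and VWF. One listed marker gene is not reported here.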

Additional observations from a re-analysis of the deposited data

How the results depend on the processing

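TNC, SPP1, POSTN, FN1, TGFBI, THBS3 and TNXB kept their direction under all alternatives that gave a value, and TNC, SPP1 and POSTN their calls in all 18. With the replicate block 4 of the 9 members were called, 2 of the 11 assembly and cleavage genes in place of 4, and 0 of the 9 TGF-β genes in place of 1; the block ended the calls of TGFBI (adjusted p = 0.063) and THBS3 (0.11, limma), and, among the other listed genes, of ITGA5, MMP14, FBLN1, TGFB2, COL1A2, COL3A1, DCN and LYZ. With 1 library left out, 1868 to 2414 genes of the table were called in place of 3138, as were 4 to 5 members and 1 to 4 assembly and cleavage genes, FN1 and THBS3 being the members lost, and the log2 fold change of THBS1 ranged from -0.24 to 0.061, its sign turning without HuCCT1/CD90+ replicate 2. The causes were not tested. No other setting changed the call of a member it tested, although THBS3 was not among the genes averaging 10 RPM or more and TNXB was removed by edgeR's filter. Median centring gave the lowest median log2 fold change of genes averaging 1 RPM or more, -0.035. Depth limits TNXB, THBS2 and the family relatives, which had few or no reads.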
